A study of Mus musculus with 16 samples.

Results

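The 10 genes described here encode the factors that carry a ribosome along an mRNA, together with relatives of these and other translation factors that are known from particular tissues. They were listed by symbol (Eef1a1, Eef1a2, Eef1b2, Eef1d, Eef1g, Eef2, Eef2k, Eif5a, Eif5a2 and Eif4e3), and all 10 were found among the 57132 Ensembl genes of the count files. Of these, 7 were grouped as ubiquitous and 3 (Eef1a2, Eif5a2 and Eif4e3) as tissue-restricted. The members were chosen by name with their measured counts by batch and treatment in view, so levels between batches are given as a description, with no test.

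RNA was measured in 12 libraries of mouse neural stem cells cultured under self-renewing conditions, abbreviated GF in the labels, which all groups share. Each of 2 labelled batches held 3 libraries treated with TAPIR, labelled gRNA, and 3 control libraries without it. The labels give no strain, culture age, guide sequence or target, and do not say what TAPIR is. The labels do not number the libraries, so the numbers 1 to 6 used here follow accession order and only name them. Nothing states that the 3 libraries of a group are separate cultures; the p-values therefore reflect only how far these samples vary, which may be technical variation. A further 4 ribosome profiling libraries are listed by transcript without gene names and under library names that match no label, and they were not analysed here.

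Library totals ran from 8414028 to 19454390 counts in genes, over a 2.31-fold range in batch 1 and a 1.31-fold range in batch 2. The 10 neural stem and progenitor markers were present in both batches, with a summed level of 1747 to 2903 counts per 1000000 (CPM) in batch 1 and 1627 to 2021 CPM in batch 2. The sum rests largely on Nes and Slc1a3, and 8 of the 10 were lower in batch 2: Prom1 went from a mean of 5.61 to 0.283 CPM, while Hes5 went from 6.12 to 27.8 CPM. Between the batches 10879 of 17704 genes tested passed at an adjusted p under 0.05 in edgeR (61.4%; 28.4% higher and 33.1% lower in batch 2), so batch was a term in the fits over both batches and levels are given by batch. The share of reads in no annotated gene also differed, at 18.95% to 25.07% in batch 1 and 8.83% to 12.7% in batch 2, and its part in the differences between batches was not tested. The labels say no more of a batch than its number.

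In elongation, eEF1A delivers each aminoacyl-tRNA to the ribosome and leaves with GDP, the eEF1B complex recharges it with GTP, and eEF2 then moves the ribosome to the next codon. The kinase encoded by Eef2k phosphorylates eEF2 and slows this last step, while eIF5A, the protein known to carry the amino acid hypusine, helps ribosomes through difficult peptide sequences. Mammals switch from eEF1A1 to eEF1A2 in mature neurons, heart and skeletal muscle, and have a second eIF5A gene with restricted expression. Eif4e3 encodes a cap-binding relative of the initiation factor eIF4E and is not itself an elongation factor.

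Promoter sequence was examined next. RefSeq (GRCm38.p6) gave windows of 300 bases, 250 before and 50 from the annotated start, for 7 of the 10 members; Eef1d, Eef1g and Eif4e3 had none. The motif TATANAA, searched on both strands, occurred in the 1 window each of Eef1a1 and Eef2 and in those of none of the other 5 genes. That is 2 of the members' 14 windows (14.3%), a share near the 11.3% of all 32851 windows. The 4 stretches of 30 bases below are shown because they set the main eEF1A and eEF2 genes beside the restricted paralogs. Capitals mark the motif in the first pair and the bases from the annotated start onwards in the second pair.
Eef1a1, chr9:78481684-78481713, minus strand: gggggagaacggTATATAAgtgcggcagtc
Eef2, chr10:81176604-81176633, plus strand: ccggcgtcgaccTATAAAAggccgggcgtt
Eef1a2, chr2:181157001-181157030, minus strand: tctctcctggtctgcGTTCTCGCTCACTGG
Eif5a2, chr3:28781262-28781291, plus strand: ggcgggcccgggctgGGCGGGCCGGGGCGG

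The motif of Eef1a1 began at position 24, downstream of the annotated start, and that of Eef2 began at position −15. In the eEF1A pair, the Eef1a2 window had an observed over expected CpG ratio of 0.42 with 8 CpG sites and the Eef1a1 window 0.7 with 22, against a median of 0.38 over all windows. The windows of Eif5a2, at 0.91 with 34 CpG sites, and Eef2, at 1.11 with 34, lay further above that median.

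The read counts of the abundant elongation factors hardly followed the depth of the library. In batch 1 Eef1a1, the gene of the main eEF1A, had 2620, 2911 and 2800 reads in gRNA libraries 1 to 3 and 2769, 2647 and 2918 reads in control libraries 1 to 3. The highest of these was 1.11 times the lowest, while the library totals spanned 2.31-fold. Eef2 had 4930, 5707 and 5632 reads in the gRNA and 5468, 4869 and 5730 in the control libraries of that batch, a 1.18-fold range. The slope of log2 count on log2 library total was 0.13 for Eef1a1 and 0.22 for Eef2, where a count in proportion to depth has a slope of 1.

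Eef1b2 (0.36), Eef1g (0.36) and Eif5a (0.31) also had a slope under 0.5 in batch 1, and the same 5 members did so in batch 2, of 8 members with a mean of at least 100 counts. Among all tested genes with that mean the share was 3.64% in batch 1 and 11.9% in batch 2, with a median slope of 1.12 and 1.15. Eef1d was intermediate at 0.61 and 0.77. By contrast Eef2k and Eif5a2 had slopes of 1.24 and 1.18 in batch 1, so their counts kept pace with depth there. In batch 2, over a narrower range of depth, the slopes were 0.54 for Eef2k and 2.22 for Eif5a2. The sources used here do not say how duplicate reads were treated, and the reason for the flat counts was not tested.

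**Figure D1:**
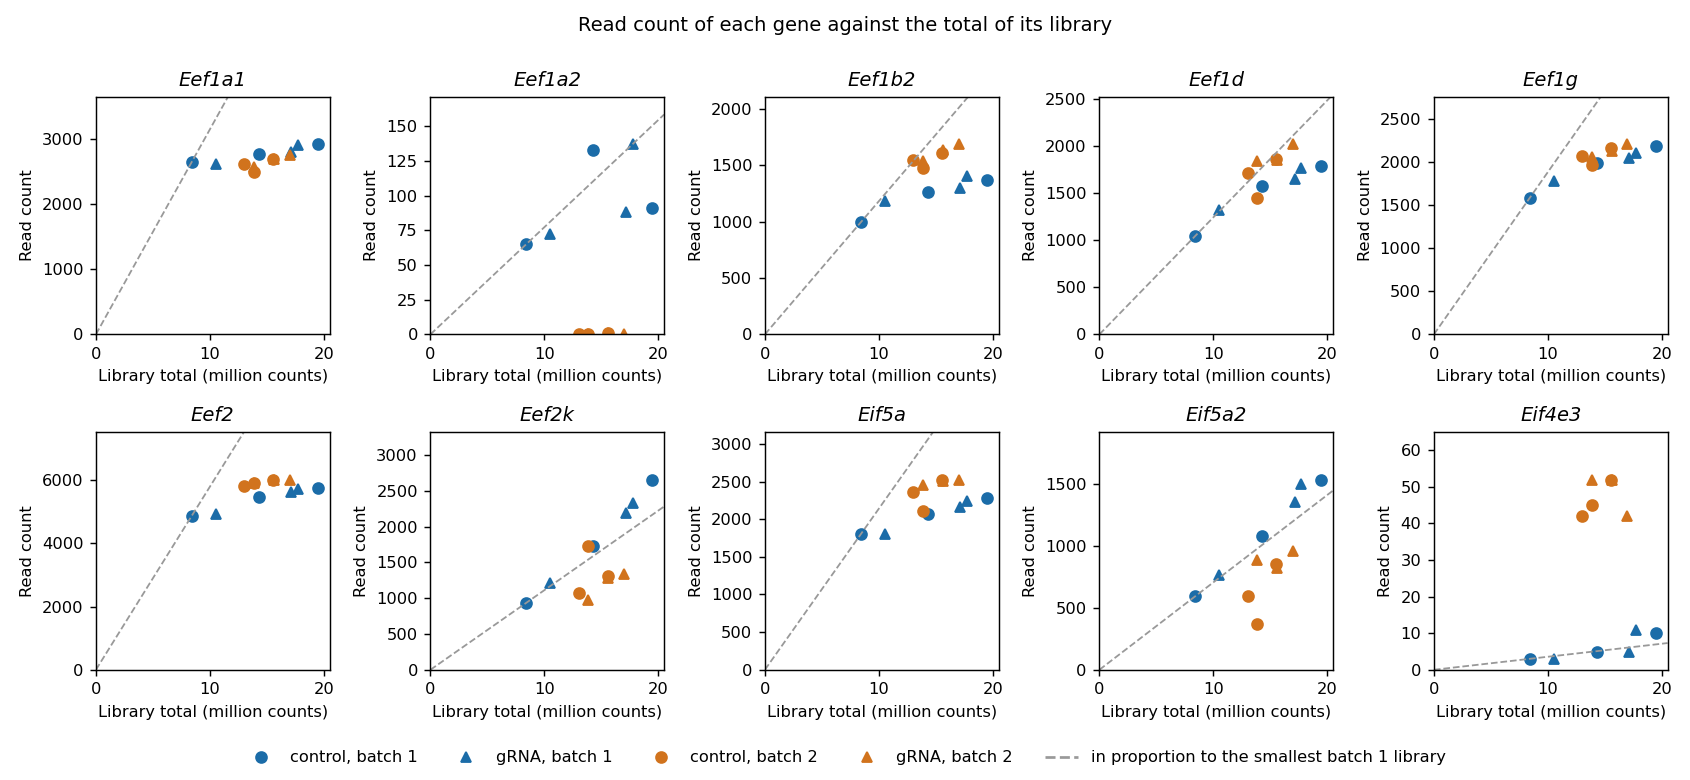
Read count (vertical axis) of each of the 10 genes against the total of its library (horizontal axis, total counts in genes), 1 point per library, with circles for control, triangles for gRNA and colour for batch; the dashed line is proportion to the smallest batch 1 library. Eef1a1 and Eef2 stay flat below the line, Eef2k and Eif5a2 follow it in batch 1, Eef1a2 lies at 0 or 1 read in batch 2 and Eif4e3 at 42 to 52 reads there.

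CPM divides by the library total, so for these genes it moved against depth. In CPM, Eef1a1 was at 195, 351 and 152 in control libraries 1 to 3 and at 261, 160 and 167 in gRNA libraries 1 to 3. The highest level belonged to the smallest library, control library 2, and the lowest to the largest, control library 3, and the groups overlapped. Control libraries 4 to 6 of batch 2 had Eef1a1 at 196, 166 and 181 CPM, and gRNA libraries 4 to 6 had it at 153, 163 and 186 CPM. The batch 1 mean was 233 ± 104 CPM for control and 196 ± 56.5 CPM for gRNA, and the batch 2 mean 181 ± 15.4 and 167 ± 16.7 CPM (SD over 3 libraries each). These groups overlapped too. Batch 2 against batch 1 gave a log2 fold change of −0.29 (SE 0.18), or −0.16 (SE 0.04) with the log2 library total as a further term, an alternative chosen after the counts had been seen. Eef1a1 has near-identical processed pseudogenes, so its count is uncertain by whatever reads were assigned to them or left out as not unique.

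Eef1a2, the eEF1A of neurons and muscle, was read in every batch 1 library and was near 0 in batch 2. It had 72, 137 and 88 reads in gRNA libraries 1 to 3 and 133, 65 and 91 in control libraries 1 to 3. In batch 2 it had 0, 1 and 0 reads in gRNA libraries 4 to 6 and again 0, 1 and 0 in control libraries 4 to 6. The batches did not overlap, and the treatments overlapped within each. Where the count was 0, a count of 3 would correspond to between 0.177 and 0.231 CPM. Summed over libraries, 586 of 87559030 reads stood against 2 of 88859697, a rate ratio of 297 with an exact 95% interval of 81.9 to 2461 that covers counting error only.

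Eef1a2 averaged 7.58 ± 2.49 CPM in the batch 1 controls and 6.64 ± 1.22 CPM in the batch 1 gRNA libraries (SD over 3 libraries each). Markers of neurons moved with it in part: 8 of the 10 listed were lower in batch 2 and 2 were higher. Among them the synaptic genes Syt1 and Snap25 went from means of 19.1 and 3.5 CPM to 0.843 and 0.0977 CPM. The neuronal nuclear protein Rbfox3 went from 12 to 0.945 CPM. The 2 higher were the synaptic gene Syp, from 12.8 to 19.1 CPM, and the neuronal tubulin Tubb3, from 3.29 to 17.1 CPM. The summed level of the 10 neuron markers was 772 to 1057 CPM in batch 1 and 647 to 800 CPM in batch 2. It was mostly that of the cytoskeletal gene Map2, and none of the 10 was at 0 in either batch. Muscle and heart markers were low, at 5.36 to 8.27 CPM summed in batch 1 and 6.32 to 11.8 CPM in batch 2, with Myog at 0 in batch 1 and Tnni2 at 0 in batch 2. Astrocyte markers summed to 541 to 863 CPM in batch 1 and 273 to 508 CPM in batch 2. Of these 7 markers 5 were lower in batch 2, among them Slc1a2, from a mean of 232 to 26.3 CPM. The 2 higher were S100b, from 9.36 to 30.1 CPM, and Aldoc, from 143 to 200 CPM. The part of other cell types in the Eef1a2 difference was not tested, and in bulk samples fewer cells of a type and less RNA per cell cannot be told apart.

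Genes near Eef1a2 on chromosome 2 were looked at after its values had been seen. The acetylcholine receptor gene Chrna4 had 2897 reads in batch 1 and 2565 in batch 2 (log2 fold change −0.24, SE 0.17). Ppdpf had 3491 and 5228 reads (log2 fold change 0.46, SE 0.08), and the kinase gene Ptk6 had 8 and 12. None of these 3 showed a difference of the size seen for Eef1a2.

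Relative to Eef1a1, Eef1a2 gave 2.46% to 4.8% of its read count in batch 1 and 0% to 0.0372% in batch 2. These are ratios of reads, not of levels per length, because exon lengths were not given for the build of the files, and they serve only to compare libraries. In batch 1 the ratio had a median of 3.12% in control and 3.14% in gRNA libraries. In the eIF5A pair, Eif5a2 gave 32.9% to 67.1% of the reads of Eif5a in batch 1 and 17.5% to 37.8% in batch 2. The cap-binding pair ran the other way, with Eif4e3 at 0.155% to 0.388% of Eif4e in batch 1 and at 1.69% to 2.84% in batch 2. Since the counts of Eef1a1 and Eif5a were flat with depth and that of Eif5a2 was not, the Eif5a2 ratio was lowest in the smallest batch 1 library, at 32.9%, and highest in the largest, at 67.1%.

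**Figure D2:**
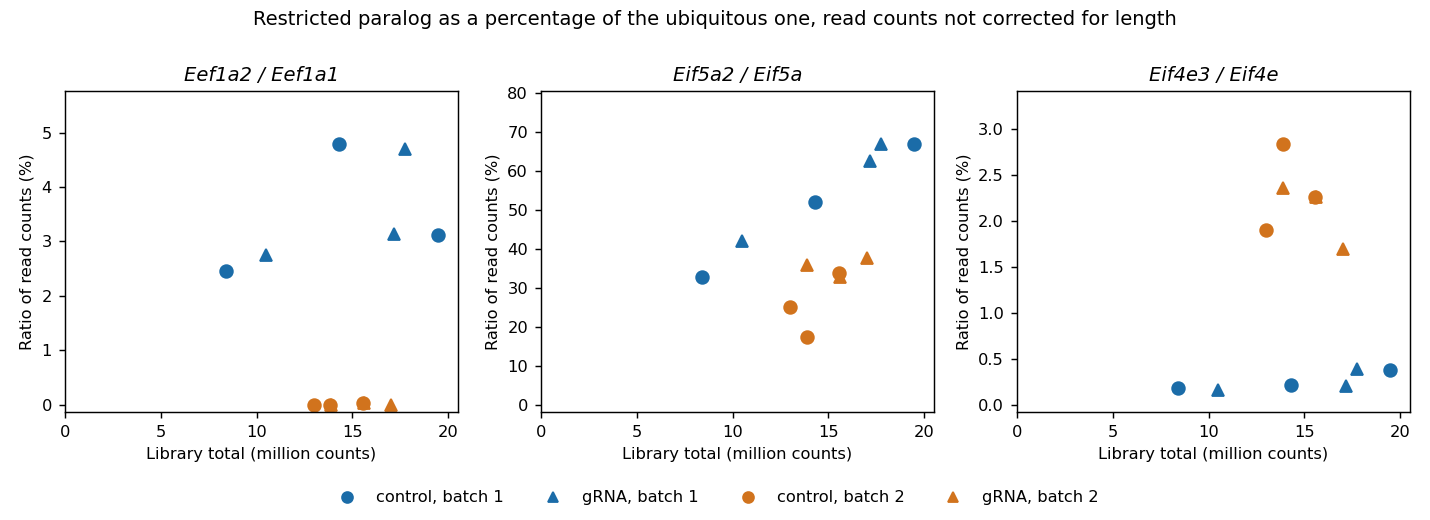
Reads of the restricted paralog as a percentage of the reads of its ubiquitous counterpart (vertical axes, not corrected for length) against the library total (horizontal axes, counts in genes), 1 point per library, circles for control and triangles for gRNA. Eef1a2 to Eef1a1 drops from 2.46% to 4.8% in batch 1 to at most 0.0372% in batch 2, Eif4e3 to Eif4e goes from at most 0.388% to at least 1.69%, and Eif5a2 to Eif5a climbs with depth in batch 1.

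The 3 genes of the eEF1B exchange complex, Eef1b2 and Eef1d for its nucleotide exchange subunits and Eef1g for the structural subunit, had levels that overlapped between the batches. Eef1b2 averaged 97.4 ± 31.1 CPM for control and 91 ± 23.6 CPM for gRNA in batch 1, against 108 ± 8.6 and 101 ± 8.78 CPM in batch 2 (SD over 3 libraries, here and for the other subunits). Eef1d averaged 114 ± 23 and 109 ± 19.9 CPM in batch 1, against 116 ± 11.6 and 119 ± 12 CPM in batch 2. Eef1g averaged 155 ± 49.7 and 138 ± 33.9 CPM in batch 1, against 144 ± 11 and 134 ± 13.6 CPM in batch 2. All 3 overlapped between treatments in each batch.

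The subunits kept a narrow ratio to each other where their counts shared the same flat course. Reads of Eef1g were 149% to 159% of those of Eef1b2 in batch 1 and 130% to 134% in batch 2, so the batches did not overlap in this ratio. Eef1b2 reads were 37.6% to 48.4% of those of Eef1a1 in batch 1 and 59.2% to 61.3% in batch 2. The batch log2 fold change of Eef1b2 was 0.15 (SE 0.14), and 0.24 (SE 0.04) with the library total as a term. For Eef1d the values were 0.08 (SE 0.11) and 0.13 (SE 0.05), and for Eef1g −0.07 (SE 0.14) and 0.01 (SE 0.04), so Eef1g changed sign with that term. The gene Tigd5 overlaps Eef1d, and no source used here gives the strand setting of the counting.

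Eef2, which encodes the translocation factor, had a log2 fold change of −0.06 (SE 0.16) between batches and 0.05 (SE 0.04) with the library total as a term. It averaged 443 ± 180 CPM for control and 380 ± 96.9 CPM for gRNA in batch 1, against 411 ± 37.3 and 375 ± 46.9 CPM in batch 2 (SD over 3 libraries each). In batch 2 its counts lay between 5810 and 6011 reads, a 1.03-fold range.

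Eef2k, the kinase that restrains eEF2, was lower in batch 2 and was the member whose treatments separated there. In batch 1 it was at 122, 124 and 139 CPM in control libraries 1 to 3 and at 120, 128 and 131 CPM in gRNA libraries 1 to 3, so the treatments overlapped. In batch 2 it was at 80.6, 80.3 and 126 CPM in control libraries 4 to 6 and at 74.4, 77.6 and 70.7 CPM in gRNA libraries 4 to 6. All 3 gRNA libraries lay below all 3 controls, and control library 6 stood high. Of the 9 members tested in batch 2, Eef2k was the 1 whose treatments did not overlap, against 5.16% of all genes tested there (2.31% lower in gRNA). In batch 1 this held for 0 of 9 members, against 5.04% of genes (2.83% higher and 2.21% lower in gRNA). The log2 fold change within batch 2 was −0.35 (SE 0.17, 95% interval −0.75 to 0.05, adjusted p = 0.9976 in edgeR's quasi-likelihood test), and −0.12 (SE 0.08) without control library 6. Between the batches it was −0.60 (SE 0.11), the same with the library total as a term. Reads of Eef2k were 19.2% to 46.4% of those of Eef2 in batch 1 and 16.6% to 29.3% in batch 2.

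**Figure D3:**
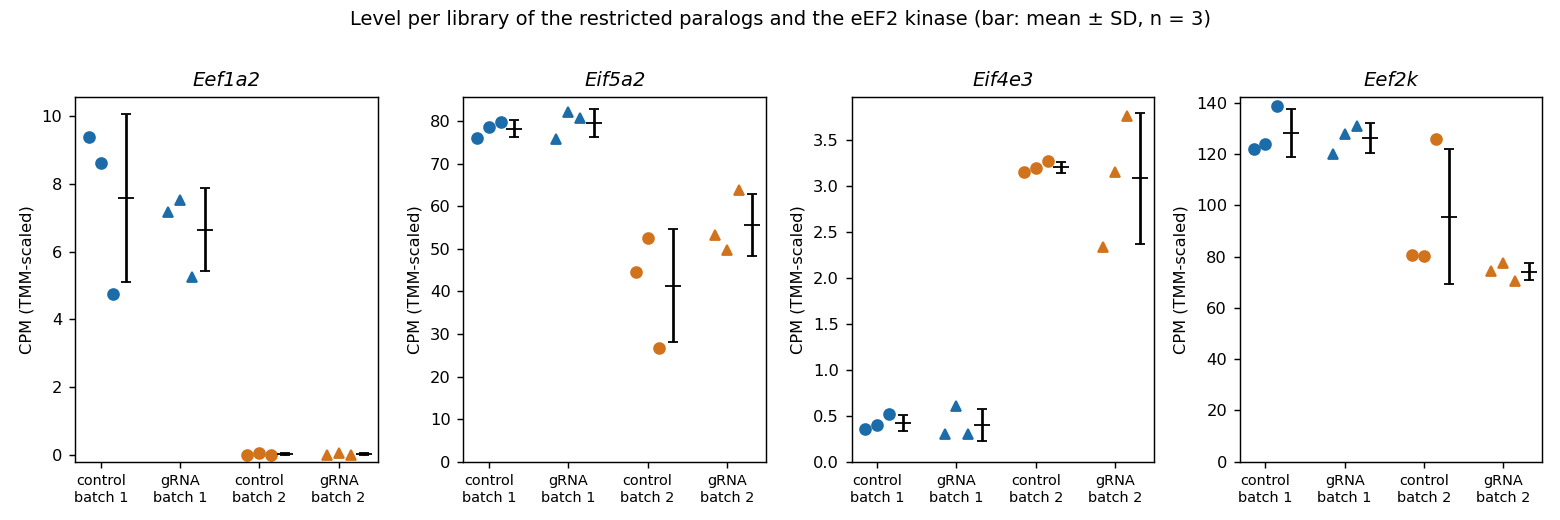
Level in CPM (vertical axes, scaled library sizes) of the 3 restricted paralogs and of Eef2k by treatment and batch, 1 point per library, with the mean and SD beside each group of 3. Eef1a2 and Eif4e3 separate the batches in opposite directions, and in control library 6, the last point of the batch 2 controls, Eif5a2 is lowest at 26.7 CPM and Eef2k is highest at 126 CPM.

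In the eIF5A pair, the batches overlapped for the ubiquitous gene and not for the restricted one. Eif5a averaged 168 ± 62.8 CPM for control and 144 ± 31.4 CPM for gRNA in batch 1, against 162 ± 13.6 and 157 ± 18.9 CPM in batch 2 (SD over 3 libraries each). Its batch log2 fold change was 0.04 (SE 0.15) or, with the library total as a term, 0.14 (SE 0.05). The batch 1 libraries had Eif5a2 at 76, 78.6 and 79.9 CPM for control and at 75.9, 82.2 and 80.8 CPM for gRNA, which overlapped. The batch 2 libraries had it at 44.6, 52.6 and 26.7 CPM for control and at 53.3, 49.7 and 63.8 CPM for gRNA, which overlapped as well. The batches did not overlap, with a log2 fold change of −0.72 (SE 0.14), and control library 6 was the lowest of all 12. Overlapping genes are listed for both: Gps2 for Eif5a, and for Eif5a2 a pair of long noncoding RNAs, 1700112D23Rik with 37 reads in batch 1 and 94 in batch 2 and Gm32950 with 16 in each.

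Eif4e3 had more reads in every batch 2 library than in any of batch 1, as did a gene that overlaps it. It had 3, 11 and 5 reads in gRNA libraries 1 to 3 and 5, 3 and 10 in control libraries 1 to 3, against 42, 52 and 52 reads in gRNA libraries 4 to 6 and 42, 52 and 45 in control libraries 4 to 6. The summed counts of 37 and 285 reads gave a rate ratio of 7.59, batch 2 over batch 1, with an exact 95% interval of 5.38 to 11 for counting error, and the fitted log2 fold change was 2.86 (SE 0.22). The receptor gene Gpr27 overlaps Eif4e3 on chromosome 6 in RefSeq. Its counts, looked at after those of Eif4e3, were 5 to 16 reads in batch 1 and 215 to 335 in batch 2, a log2 fold change of 4.58 (SE 0.25). HTSeq labelled 3.22% to 4.06% of the reads of a library as ambiguous between genes. Without a stated strand setting, how reads in the overlap of this pair were assigned is not known. How many of the Eif4e3 reads belong to Gpr27 was not tested. The flanking genes Foxp1 and Rybp were at log2 fold changes of −0.01 (SE 0.16) and −0.41 (SE 0.10). Eif4e itself, the ubiquitous cap-binding factor, was at −0.24 (SE 0.12).

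**Figure D4:**
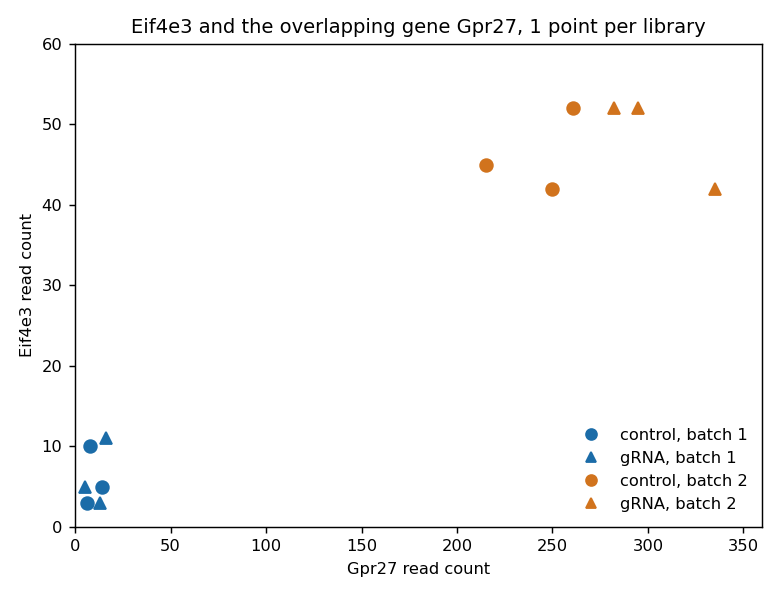
Read count of Eif4e3 (vertical axis) against that of the overlapping gene Gpr27 (horizontal axis), 1 point per library, with circles for control, triangles for gRNA and colour for batch. The 6 batch 1 libraries lie at 3 to 11 Eif4e3 and 5 to 16 Gpr27 reads, and the 6 batch 2 libraries at 42 to 52 and 215 to 335.

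No count of members called between batches is given, since the members were chosen with these values known. Eef1a2 passed the filter on low counts through batch 1 and Eif4e3 through batch 2, and neither was tested in the other batch alone.

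For gRNA against control over both batches, no member passed, and 0 of 17704 genes did (0.0%; 230 genes and 0 members at an unadjusted p under 0.05 in edgeR, and 216 genes with 0 calls in DESeq2). Of the 10 members 1 lay above and 9 below 0, with a median log2 fold change of −0.13, against −0.01 over all genes tested. Eef1a1 was at −0.18 (SE 0.18, 95% interval −0.56 to 0.20, n = 6 per group) and Eef2 at −0.18 (SE 0.16). With the library total as a term they were at −0.02 (SE 0.04, interval −0.10 to 0.06) and −0.03 (SE 0.04), and Eif5a went from −0.13 (SE 0.15) to −0.002 (SE 0.05). Eef1g moved likewise from −0.13 (SE 0.14) to −0.02 (SE 0.04). Without control library 2, the smallest, Eef1a1 was at 0.01 (SE 0.12), Eef2 at −0.01 (SE 0.12), Eef1g at −0.01 (SE 0.11) and Eif5a at 0.02 (SE 0.10).

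For Eef2k and Eif5a2 the SE was not smaller with that term. Eef2k was at −0.19 (SE 0.11) and −0.21 (SE 0.12), and Eif5a2, the member above 0, at 0.22 (SE 0.14) and 0.22 (SE 0.15). Without control library 6 these were −0.06 (SE 0.06) and 0.10 (SE 0.08). Eef1a2 was at −0.18 (SE 0.30), Eif4e3 at −0.06 (SE 0.21), Eef1b2 at −0.09 (SE 0.14) and Eef1d at −0.01 (SE 0.11); with the library total as a term the last pair turned to 0.02 (SE 0.04) and 0.06 (SE 0.05). The adjusted p was 0.9998 for each of the 10 in edgeR. In this fit over both batches the 95% interval lay within a 2-fold change in either direction for all 10 members and within 1.5-fold for 9, Eef1a2 being the exception. For genes whose counts stay flat with depth this bounds the counts, not necessarily the mRNA. The fit rests mostly on batch 1 for Eef1a2 and on batch 2 for Eif4e3. Some intervals within 1 batch were wider: −0.63 to 0.52 for Eif4e3 and −0.14 to 0.997 for Eif5a2 in batch 2, and −0.92 to 0.45 for Eef1a1 in batch 1.

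**Figure D5:**
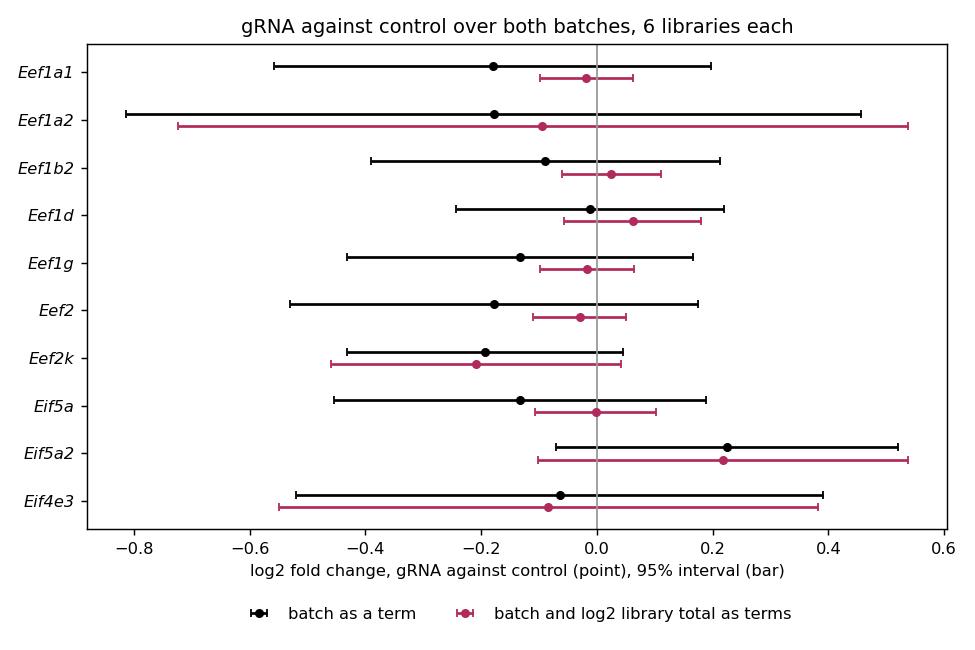
Log2 fold change of gRNA against control (horizontal axis, bars are 95% intervals, 6 libraries per group) for each of the 10 genes, with batch as a term (black) and with batch and the log2 library total as terms (red). All intervals include 0; with the library total those of Eef1a1, Eef1b2, Eef1g, Eef2 and Eif5a shrink toward 0 while those of Eef1a2, Eef2k, Eif5a2 and Eif4e3 stay wide.

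The effect of gRNA within the batches did not pass for any member either. In batch 1 (9 members tested, 0 of 16988 genes called, 0.0%) Eef1a1 was at −0.24 (SE 0.30) and Eif5a2 at 0.04 (SE 0.09), and in batch 2 (9 members tested, 0 of 15647 genes called, 0.0%) they were at −0.11 (SE 0.10) and 0.43 (SE 0.24). DESeq2 also called 0 genes in each, with 57 and 119 at an unadjusted p under 0.05 against 147 and 116 in edgeR. The difference between batches in edgeR was 0.135 (SE 0.36) for Eef1a1, 0.40 (SE 0.26) for Eif5a2 and −0.34 (SE 0.21) for Eef2k, with an adjusted p of 0.9999 and 0 of 18279 genes called (0.0%; 236 at an unadjusted p under 0.05, and 0 called with 180 in DESeq2). Without control library 6 the batch 2 value of Eif5a2 was 0.18 (SE 0.12), and the difference between batches was 0.16 (SE 0.16) for Eif5a2 and −0.09 (SE 0.12) for Eef2k.

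Partner genes of the elongation factors gave no call for gRNA against control in any of the 7 lists. The diphthamide list, named for the modified histidine of eEF2 and also holding Eef2kmt, lay above 0 in 8 of 8 (median 0.09). The mitochondrial elongation list did so in 9 of 10 (median 0.05). The cap-binding list, which also holds initiation factors other than eIF4E, lay below 0 in 14 of 15 tested (median −0.08). The methyltransferases and partners of eEF1A had 9 of 11 tested above 0 (median 0.10), eEF2 kinase regulators 8 of 12 below 0 (median −0.07), polyamine and hypusine genes 6 of 11 above 0 (median 0.004), and termination genes 5 of 7 above 0 (median 0.06). Of all 17704 genes tested, 8441 lay above and 9263 below 0. Genes of a list were measured in the same libraries, so their directions are not separate observations and were not tested. The smallest unadjusted p among the named genes was 0.0605, for Mtor, the kinase that restrains Eef2k activity through its substrates, at −0.14 (SE 0.07).

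Between batches, where the lists were likewise drawn up with results known, genes of each list were called, and the counts below are only a description. The genes named here were picked for having the largest batch differences in their lists. Dhps, the first enzyme of hypusine synthesis on eIF5A, averaged 21.8 ± 2.3 CPM over the 6 libraries of batch 1 and 34 ± 4.8 CPM over those of batch 2 (SD; log2 fold change 0.64, SE 0.11). The AMPK subunit gene Prkaa2, whose kinase can activate Eef2k, was at 88.6 ± 8.85 and 33.2 ± 5.76 CPM (−1.42, SE 0.11). The eEF1A methyltransferase gene Eef1akmt4 was at 4.33 ± 0.761 and 8.87 ± 2.11 CPM, and Eif2d, a factor of late initiation and recycling, at 57.8 ± 4.65 and 31.8 ± 3.02 CPM. Of the diphthamide list 5 of 8 were called higher and 1 lower in batch 2, of the eEF1A partners 7 and 1 of 11, and of the eEF2 kinase regulators 2 and 3 of 12. The hypusine list had 4 higher and 2 lower of 11, cap binding 2 and 0 of 15, termination 1 and 1 of 7, and mitochondrial elongation 0 and 3 of 10, against 28.4% higher and 33.1% lower over all genes.

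The genes with a course most like that of Eef1a1 over the 12 libraries, by the root mean square difference of centred log2 CPM among 11015 protein-coding genes, were the ATP synthase subunit gene Atp5b (0.036), the ribosomal protein gene Rps2 (0.036) and the thioredoxin gene Txn1 (0.042). Atp5b averaged 259 ± 88 CPM over the 6 batch 1 libraries and 218 ± 20.8 CPM over those of batch 2 (SD). Since the CPM of Eef1a1 moved against depth, likeness to it can come from the same course with depth. Whether these genes share more than that with Eef1a1 was not tested. Those most like Eef1a2 were Tmem178b (0.274), Ndn (0.318) and Rab26 (0.326). These genes were picked for likeness over the same libraries, so a much lower level in batch 2 follows from the choice. Tmem178b went from 14.9 ± 4.44 to 0.19 ± 0.0652 CPM and Rab26 from 28.3 ± 10.4 to 0.373 ± 0.117 CPM. Ndn, an imprinted gene of neurons, went from 36.1 ± 4.54 to 0.75 ± 0.141 CPM.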

How the data were processed

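The authors deposited a table of raw read counts by Ensembl gene, without normalization, for each of 12 RNA-seq libraries; per the submitters' processing notes they came from Trimmomatic, STAR, SAMtools and HTSeq on GRCm39, and per the labels' protocols from stranded, ribosomal-RNA-depleted total RNA. The sources used here give no versions, strand setting or duplicate handling for them. HTSeq summary lines were left out of totals; reads in no gene were 8.83% to 25.07%. Symbols matched 90.8% of genes.

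The test was edgeR 4.0.16 (R 4.3.3; filterByExpr, minimum count 10; TMM; quasi-likelihood; Benjamini-Hochberg at 0.05), with batch as a term, within each batch and as an interaction. Alternatives were DESeq2 1.42.0, RLE factors, no filter, no batch term and leaving out each library; the library total as a term was added after seeing the data. The fits were tested on simulated data whose counts follow library size, unlike the flat counts of several members, so that test does not cover such counts. CPM used TMM-scaled totals. Slopes were least-squares fits of log2(count + 0.5). Python 3.11.15 with pandas 2.3.3 and scipy 1.17.1 gave the rest.

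Members, lists and rules were chosen with earlier results of these data known. Named were all members, Eif4e, up to 3 genes per list by p and 2 by batch difference (mean of at least 5 CPM), and 3 genes most like Eef1a1 and Eef1a2. Paralog ratios were planned per length and are given as reads. Ribosome footprints were not used. A result for 1 gene is not reported here.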

Additional observations from a re-analysis of the deposited data

How the results depend on the processing

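Each of the 4 gRNA comparisons called 0 genes when any 1 library was left out, and the batch comparison called 10528 to 12074. With no filter on low counts, edgeR's calls came to 1 gene over both batches, 1 within batch 1 and 42 for the difference between batches. Of the 194 alternative values of members that kept all libraries, 180 kept their direction and, in the gRNA comparisons, stayed short of the threshold. Between batches no test is given, and the 95% intervals without and with the library total as a term only describe the fits. For Eef1a1 they were −0.67 to 0.09 without that term and −0.24 to −0.08 with it. For Eef1b2 they were −0.15 to 0.46 and 0.16 to 0.33, in the same order. Those of Eif5a were −0.28 to 0.36 and 0.03 to 0.24, and those of Eef1d −0.15 to 0.31 and 0.01 to 0.25. With the log2 library total as a term, gRNA against control turned to 0.0249 for Eef1b2 and 0.0615 for Eef1d over both batches, to 0.04 and 0.0201 within batch 1, and within batch 2 to 0.0177 for Eef1b2, 0.00134 for Eef2, 0.00171 for Eef1a1, 0.00388 for Eef1g, 0.0622 for Eif5a and 0.0714 for Eif4e3. The difference between batches turned for Eef1b2 (−0.0198, and −0.00321 without a filter), and batch 2 against batch 1 for Eef2 (0.0525) and Eef1g (0.0139). The cause was not tested.

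With 1 library left out, gRNA against control over both batches ranged from −0.287 to 0.00638 for Eef1a1, −0.19 to 0.0265 for Eef1b2 and −0.206 to 0.0205 for Eif5a, each turning without control library 2, the smallest. Without that library Eef2 came to −0.0138 and Eef1g to −0.00999, with ranges of −0.272 to −0.0138 and −0.224 to −0.00999. The gRNA difference ranged from −0.408 to 0.0152 for Eef1a2 (turning without control library 1), −0.175 to 0.0489 for Eif4e3 (without gRNA library 4) and −0.0752 to 0.0592 for Eef1d (without gRNA libraries 2 to 5 or control libraries 2 or 4, 1 at a time). Within batch 1 the ranges were −0.497 to 0.174 for Eef1a1, −0.441 to 0.0362 for Eef1a2, −0.314 to 0.184 for Eef1b2, −0.212 to 0.0999 for Eef1d, −0.366 to 0.125 for Eef1g, −0.439 to 0.153 for Eef2, −0.0521 to 0.0438 for Eef2k and −0.403 to 0.122 for Eif5a. Within batch 2 they were −0.0459 to 0.125 for Eef1d, −0.224 to 0.108 for Eif4e3 and −0.144 to 0.0316 for Eif5a. For the difference between batches they were −0.256 to 0.396 for Eef1a1, −0.24 to 0.241 for Eef1b2, −0.0338 to 0.264 for Eef1d, −0.2 to 0.274 for Eef1g, −0.255 to 0.317 for Eef2 and −0.141 to 0.365 for Eif5a. Batch 2 against batch 1 ranged from −0.13 to 0.0771 for Eef1g, −0.122 to 0.131 for Eef2 and −0.0162 to 0.223 for Eif5a.

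No paired analysis was possible because the labels give the RNA-seq libraries no replicate numbers, those used here being only names in accession order, and the footprint table names no labelled library. Alternatives on lengths and on footprints were not run, and the interaction is not given for Eef1a2 and Eif4e3, which were each near 0 in 1 batch. Eif4e3 had 3 to 11 reads in the batch 1 libraries and Eef1a2 0 or 1 in those of batch 2, too few to compare treatments there.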
